A study of Mus musculus with 35 samples.

Results

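OT-I cytotoxic T lymphocytes (CTLs) were followed through 24 h without interleukin-2 (IL-2) at pH 7.4, the pH of the control cultures. The comparison used the 5 libraries of cells taken at the start of the experiment and the 5 libraries of cells that then spent 24 h in medium of pH 7.4 with no IL-2 added, 10 of the 35 libraries of the series, chosen by their titles alone. The 5 libraries of cells kept for the same 24 h at pH 7.4 with 200 IU/mL IL-2 are given beside them. OT-I mice carry a transgenic T cell receptor for a peptide of ovalbumin, and every group was made of their CD8+ T cells, primed with antibodies to CD3 and CD28 in IL-2 and expanded with fresh IL-2. The start cells are described only as untreated: neither the pH of their medium nor the time since their last IL-2 is given. Ages and sexes of the mice are not given. Each replicate number names cells of 1 biological replicate that were cultured under every condition. Dead cells were removed on Ficoll before RNA extraction, so the libraries describe the cells that remained. The step from the start to 24 h contains both the time in culture and the loss of IL-2, and the step to 24 h with IL-2 contains the same time in culture, the renewed IL-2 and any change of pH on entering the medium of pH 7.4. Within either step from the start these cannot be told apart. The cultures without and with IL-2 at 24 h shared the time and the pH of the medium and differed in the IL-2 added.

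IL-2 binds a receptor of 3 chains, CD25 (Il2ra), CD122 (Il2rb) and the common gamma chain (Il2rg), and signals through JAK1 and JAK3 to STAT5, as well as through PI3K, AKT and mTORC1. In activated CD8+ T cells STAT5 sustains CD25, survival proteins of the BCL2 family and granzymes, while mTORC1 and c-Myc drive growth, nutrient uptake and division. AKT keeps the transcription factor FOXO1 out of the nucleus, and FOXO1 is known to raise genes of resting T cells such as the IL-7 receptor and Klf2.

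The libraries held 23159990 to 27400369 reads on genes at the start, 21982865 to 28681772 without IL-2 and 23505962 to 30734999 with IL-2. Levels are given in CPM, the usual unit of reads on a gene relative to all reads of its library, here after scaling the libraries to each other, and changes as log2 fold changes with their standard errors (SE) from a fit over all libraries. A number in parentheses after a gene name is its log2 fold change from the start to 24 h without IL-2, unless IL-2 is named. All levels are relative to the other genes of the same bulk library, and less RNA per cell cannot be told apart from fewer cells that carry it. The 8 CD8 T cell markers summed to 5090 to 6340 CPM at the start and 4550 to 5260 CPM without IL-2. Of the 7 B cell markers 6 stayed under 1 CPM in every library without IL-2, and the 6 erythroid markers summed to at most 0.274 CPM in any of the start libraries. The 18 myeloid and dendritic cell markers summed to 13.7 to 16.8 CPM at the start, 29.7 to 44.0 CPM without IL-2 and 15.9 to 19.8 CPM with IL-2. Without IL-2, 9 of these 18 were at 0 in every library. NK cell markers, among them Eomes, summed to 356 to 501 CPM at the start and 169 to 186 CPM without IL-2, CD4 and regulatory T cell markers to 41.0 to 63.8 and 25.7 to 38.3 CPM, and gamma delta T cell markers to 545 to 837 and 675 to 853 CPM. Reads that matched no gene made up 2.58 to 5.68% of each start library and 7.70 to 10.2% without IL-2, and reads aligned to several places 39.3 to 48.3% and 32.8 to 37.1%. The part that these shares play in the results was not tested. The start library of replicate 5 stood apart, with the highest share of reads aligned to several places among the 35 libraries (48.3%), and values without replicate 5 are given beside several results.

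Between the start and 24 h without IL-2, 10398 of the 13819 genes tested (75.2%) changed at an adjusted p under 0.05. Of these 5103 rose (36.9% of the genes tested) and 5295 fell (38.3%), the shares beside which the counts of any gene list below have to be read. By library totals alone in place of the trimmed mean of M values (TMM), 5697 rose and 4719 fell. A change of at least 2-fold was called for 4205 genes (30.4%), 2016 that rose (14.6%) and 2189 that fell (15.8%). With IL-2, 8282 genes (59.9%) changed from the same start libraries, 4009 higher (29%) and 4273 lower (30.9%), and 2091 (15.1%) changed by at least 2-fold. That split depended on the scaling: with upper quartile scaling 2849 were higher and 5708 lower. At 24 h the cells without and with IL-2 differed in 11111 genes (80.4%), 5678 higher (41.1%) and 5433 lower (39.3%) without IL-2, 5657 of them by at least 2-fold (40.9%), and this contrast is also the test of whether the changes from the start differed. On the first principal component, which held 67.8% of the variance, the start libraries lay between -39.07 and -23.75, those without IL-2 between 93.19 and 100.3, and those with IL-2 between -73.74 and -56.73. The cultures without IL-2 therefore lay on the opposite side of the start from those with IL-2.

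**Figure D1:**
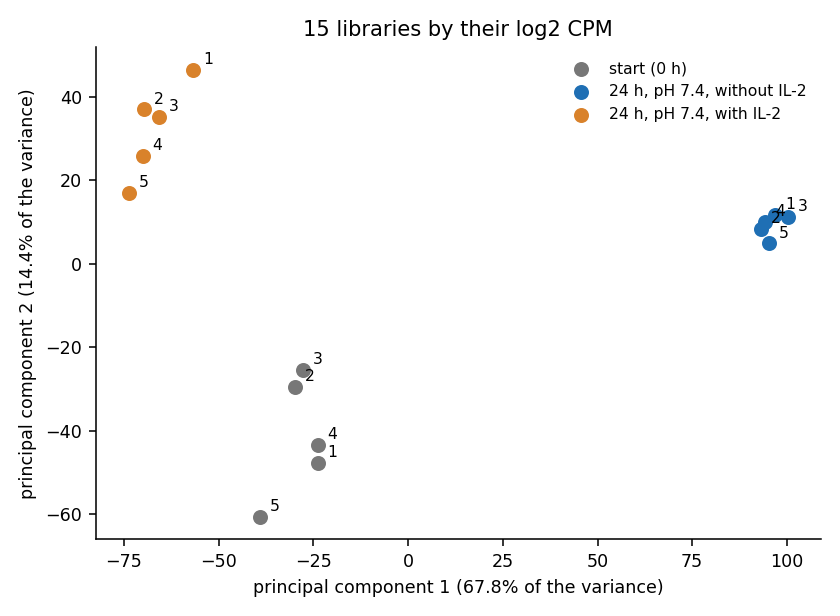
Each point is 1 library, placed by its first (x axis) and second (y axis) principal component of log2 CPM, in percent of the variance, and numbered by replicate. The 5 libraries without IL-2 lie at 93.19 to 100.3 on the first component, apart from both other groups.

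The 10 largest rises among genes with a mean of at least 3 on the log2 CPM scale and the same direction in 5 of 5 pairs were those of Il7r, Rflnb, Tbc1d4, Txnip, Tent5c, Art4, Actn1, Slamf6, Slc26a11 and Arl5c, from 5.08 down to 3.47 on the log2 scale. The receptor chain for IL-7 headed them, together with Txnip, which restrains glucose uptake and binds thioredoxin, Tbc1d4, a Rab GTPase-activating protein of glucose transporter traffic, and Slamf6, a receptor used to mark stem-like CD8+ T cells. Among the 10 largest falls were those of Lif, Gzmb, Ak4, Tnfrsf9, Neb, Tgm2, Tnfrsf8, Mycn and Slc16a3, from -6.37 to -5.17. Lif is a cytokine of the IL-6 family, Tnfrsf9 the costimulatory receptor 4-1BB and Slc16a3 the lactate exporter MCT4. Lif was at 78.8, 140, 180, 69.9 and 71.2 CPM in the 5 start libraries and at 1.26, 0.393, 0.551, 2.59 and 3 CPM without IL-2, in the order of replicates 1 to 5. No library without IL-2 came near the lowest start library. With IL-2 its change was 0.72 ± 0.42 on the log2 scale, which missed the threshold (adjusted p = 0.143).

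**Figure D2:**
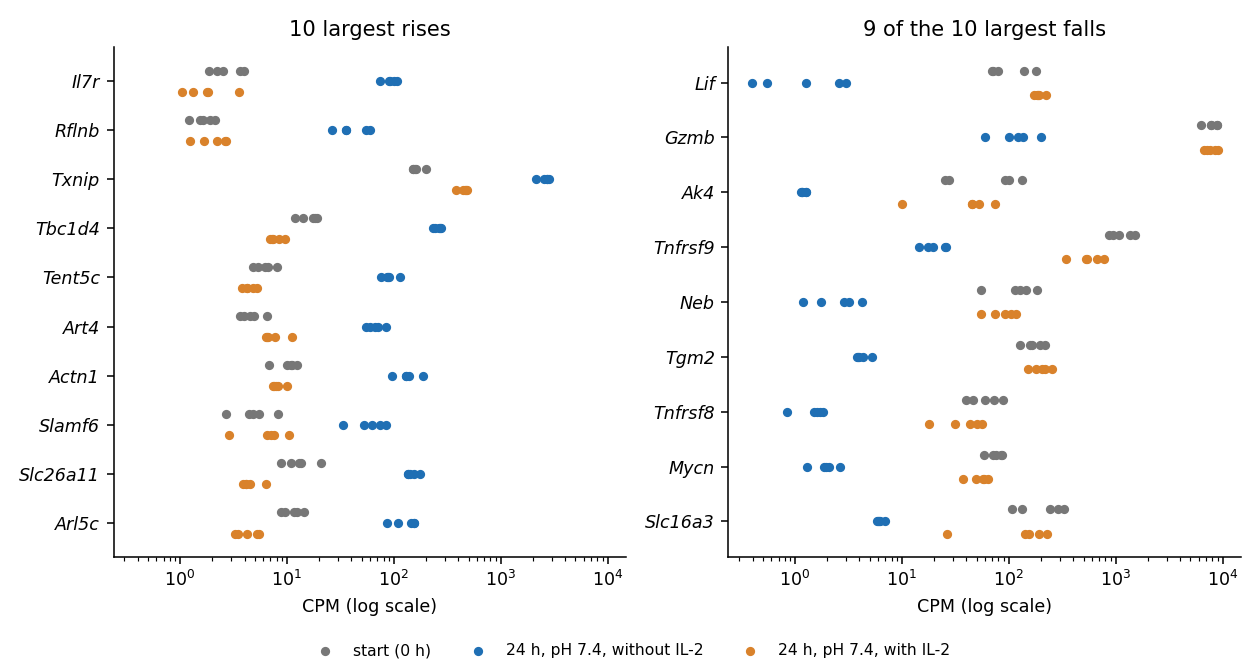
Every dot is 1 library (x axis, CPM on a log scale) for the 10 genes that rose most (left) and 9 of the 10 that fell most (right) without IL-2, in rows by gene. In every row the 5 libraries without IL-2 lie apart from the 5 start libraries, and for Il7r the libraries with IL-2 lie at or below 3.57 CPM, beside those of the start.

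Transcripts of the chains CD25 and CD122 of the IL-2 receptor fell. CD25 (Il2ra) was at 432, 563, 597, 686 and 576 CPM at the start and at 216, 191, 176, 191 and 146 CPM after 24 h without the cytokine. The groups did not overlap, as was the case for 7070 of all genes tested (51.2%), and the level dropped 3.12-fold (log2 fold change -1.64 ± 0.11, adjusted p = 4.98e-15, edgeR's quasi-likelihood test with Benjamini-Hochberg adjustment). With IL-2 it stood at 539, 544, 565, 542 and 555 CPM, within the range of the start libraries. CD122 (Il2rb) fell 2.03-fold (log2 -1.02 ± 0.10), from 942 to 1748 CPM at the start to 540 to 725 CPM. Jak1, the kinase bound to CD122, moved the other way. Its RNA was at 691, 923, 909, 910 and 752 CPM at the start and at 2363, 2601, 2813, 2389 and 2459 CPM without IL-2, a rise of 3.02-fold (log2 1.59 ± 0.07, adjusted p = 6.07e-20) with no overlap, against 773 to 920 CPM with IL-2. Jak3 fell to a like extent without (-0.68) and with IL-2 (-0.67), and the cells at 24 h gave no difference that passed the test (-0.01 ± 0.13, adjusted p = 0.932). Stat5b rose slightly (log2 0.31 ± 0.07). Of the 9 genes of the receptor, JAK and STAT list 4 rose and 5 fell, where 36.9% and 38.3% of all genes tested did, but the calls of Il2rg, Stat3 and Stat5a were lost under several other settings (Stat5a was at 0.11 without replicate 5).

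Genes known to be raised by STAT5, among them the feedback inhibitors of the CIS and SOCS family, were mostly lower: 20 of 23 tested members fell and 2 rose, with a median log2 fold change of -2.33 against -0.0119 over all genes tested. In the 5 pairs the list's median lay between -2.40 and -1.91. With IL-2, 15 of the same 23 were lower and 2 higher (30.9% and 29% of all genes), at a median of -0.41, and at 24 h 21 of 23 were lower without than with IL-2 (39.3% of all genes). Cish, which encodes the inhibitor CIS, was at 585, 734, 664, 514 and 483 CPM at the start and at 49.9, 38.2, 35.4, 55.7 and 70.0 CPM without IL-2. That was a fall of 12.3-fold (log2 -3.62 ± 0.19, adjusted p = 4.22e-17). It remained at 423, 423, 413, 443 and 407 CPM in the cultures with IL-2. The cytokine gene Osm went from 109, 174, 170, 116 and 155 CPM to 6.95, 8.09, 8.09, 6.34 and 8.86 CPM, an 18.8-fold fall (log2 -4.23 ± 0.15) with no overlap. Tnfrsf8, which encodes CD30, fell 39.5-fold (log2 -5.31 ± 0.21). Swap70 was 1 of the 2 members that rose (0.53). Among members chosen after their values were seen, Socs2 changed by -2.33 without and -0.38 with IL-2. Pim1, a survival kinase, changed by -1.46 and -1.11, so that most of its fall from the start was also present with IL-2, although the cells at 24 h still differed (-0.36 ± 0.08, adjusted p = 0.000111).

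Promoters were read from RefSeq (GRCm38.p6) as 300 bases, 250 before to 50 after each start site. Of 13818 tested symbols 9977 had one. The letters TTCNNNGAA, the STAT half-site pair, were found on either strand in 3 of 17 promoters of the STAT5 list (17.6%) and in 8.21% of all. The share was higher in several other lists, whichever way they changed. Lists that rose or were mixed included the GIMAP genes (50.0%, 4 of 8), costimulatory receptors (33.3%), other cytokine receptors (31.2%) and interferon-stimulated genes (25.7%). Lists in which most members fell included the effector cytokines, the amino acid transporters and the targets of the transcription factor ATF4. The stretch of the Lta promoter with the motif in capitals is shown because Lta, the cytokine lymphotoxin alpha, fell 6.75-fold without IL-2 (log2 -2.75 ± 0.12) and gave 0.15 ± 0.11 with it. It lies at chr17:35205352-35205391 on the minus strand.
Lta: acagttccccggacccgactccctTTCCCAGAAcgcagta
The match describes the letters alone, and no binding was measured.

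Of 20 tested receptors for other cytokines 10 were higher and 6 lower, beside 36.9% and 38.3% of all genes tested. Il7r, the receptor chain through which resting and memory T cells bind IL-7, was at 3.99, 1.87, 2.53, 3.62 and 2.19 CPM at the start and at 91.7, 100, 106, 89.8 and 74.9 CPM without IL-2. Every library without IL-2 lay above every start library, and the fitted rise was 33.8-fold (log2 5.08 ± 0.18, adjusted p = 8.34e-22). Libraries with IL-2 held 3.57, 1.81, 1.31, 1.78 and 1.04 CPM. The shared cytokine chain gp130 (Il6st, 0.89) and the type I interferon receptor chain Ifnar1 (0.92) also rose. Il12rb1, a chain of the IL-12 receptor (-2.21), the IL-21 receptor Il21r (-1.57) and Il18rap (-0.92) fell. With IL-2, 13 of the 20 were lower and 2 higher.

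Transcripts of the main killing proteins fell steeply. Gzmb, the serine protease that cleaves caspases in the target cell, was at 6323, 7856, 7800, 8916 and 8894 CPM at the start and fell to 101, 135, 60.4, 202 and 123 CPM. The lowest start library lay far above the highest library without IL-2, and the fitted fall was 67.9-fold (log2 -6.08 ± 0.20, adjusted p = 4.56e-22). With IL-2 it was at 7211, 7607, 6696, 8458 and 9010 CPM and its change from the start was -0.04 ± 0.16 (adjusted p = 0.855). Perforin (Prf1), which opens the target cell membrane, fell 18.4-fold, from 387, 603, 376, 686 and 521 CPM to 16.5, 41.0, 19.5, 36.5 and 29.8 CPM (log2 -4.20 ± 0.18). Granzyme A (Gzma) fell 6.45-fold, from 1708, 1724, 1765, 2811 and 3681 CPM to 322, 409, 241, 471 and 338 CPM (log2 -2.69 ± 0.13). For both genes every library without IL-2 lay under every start library.

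Not all of the granule list followed them. Of its 26 members 15 fell and 4 rose, at a median of -0.67. Nkg7, a granule membrane protein (-2.0), Serpinb9, the inhibitor with which CTLs protect themselves from granzyme B (-2.92), and Gzmm (-1.72) fell. The granzymes Gzmc (-1.03), Gzmd (-1.53), Gzme (-1.93) and Gzmg (-1.82), a cluster of similar genes, fell too. Rab27a, needed to dock granules, fell (-0.80), whereas the values of the release factors Unc13d (-0.04) and Stxbp2 (-0.03), the granule proteoglycan serglycin (Srgn, 0.14) and Lamp1 (0.04) did not pass the test. Srgn passed without replicate 1 (0.19), without replicate 5 (0.23), with upper quartile scaling (0.21) and by library totals (0.24), and Lamp1 under the same 2 scalings (0.11 and 0.14). Cathepsin C (Ctsc), which activates granzymes, rose (0.83), and so did Serpinb9b (1.77), Ctsl (0.47) and Lamp2 (0.43). With IL-2, 8 members of the list were lower and 4 higher, at a median of -0.04.

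Of 19 tested effector cytokines, chemokines and death ligands 11 fell and 6 rose, at a median of -0.44. Without replicate 5, 9 fell and 6 rose, at -0.20. The list's median lay between -1.26 and 0.121 in the 5 pairs, higher in 2 and lower in 3. The pairs thus did not share a direction. With IL-2, 6 rose and 5 fell (29% and 30.9% of all genes), at 0.145. Csf2, which encodes GM-CSF (-2.93), Tnfsf14, which encodes LIGHT (-2.34), Tnf (-1.83) and Tgfb1 (-0.99) fell. Il24 was at 3.72, 4.25, 5.33, 6.88 and 10.1 CPM at the start and at 0.0969, 0, 0, 0.0417 and 0 CPM without IL-2, and its libraries with IL-2 held 2.68, 6.18, 6.77, 8.61 and 13.1 CPM. Il10 went from 2.86 to 12.6 CPM down to 0 to 0.128 CPM. Neither gene overlapped the start, and both were at or near 0 without IL-2, so no fold is given. The interferon gamma gene Ifng shares some of its bases with another annotated gene. Its fitted fall was 0.79 ± 0.25 (adjusted p = 0.00641), with 3 of the 5 pairs lower and 2 higher. The call was lost without replicate 3 (-0.37), without the replicate block and in the fit of the 2 groups alone (-0.75). The chemokine genes Ccl5 and Ccl1 went the other way. Ccl5 (RANTES) rose 3.71-fold, from 45.3, 53.2, 53.3, 39.2 and 51.0 CPM to 190, 228, 177, 170 and 141 CPM, and was at 19.5, 15, 19.5, 13.7 and 12.9 CPM with IL-2. Every library without IL-2 lay above, and every library with IL-2 below, all start libraries. Ccl1 was at 0.196, 0, 0.129, 0.0407 and 0.390 CPM at the start and 5.59, 15.4, 6.52, 16.4 and 6.72 CPM without IL-2, with no overlap. Ltb (0.88), Tnfsf10, which encodes TRAIL (0.77), and Xcl1 (0.92) rose, the last of them not without the replicate block. The values of Ccl3 (0.41) and Ccl4 (-0.26) did not pass the test, but Ccl3 passed without replicate 1 (0.74) and Ccl4 without replicate 4 (-0.54).

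Transcription factors of memory and stem-like T cells were mostly higher after 24 h without IL-2: 11 of 17 rose and 4 fell, with a median of 0.58. Tcf7 encodes TCF1, the factor of stem-like and resting T cells. Its level was 85.8, 74.3, 86.9, 67.6 and 80.1 CPM at the start, 857, 932, 1066, 655 and 823 CPM without IL-2 and 50.4, 43.8, 53.5, 32.2 and 29.9 CPM with IL-2. The group without IL-2 stood above every other library and the group with IL-2 below every start library, with a rise of 10.8-fold without IL-2 (log2 3.44 ± 0.10, adjusted p = 3.89e-24) and a change of -0.94 ± 0.09 with it. Bcl6, a repressor that counters Blimp-1, went from 9.39, 4.91, 4.94, 8.14 and 6.91 CPM to 62.1, 57.1, 56.3, 59.2 and 51.7 CPM, an 8.35-fold rise (log2 3.06 ± 0.14), and was at 3.61, 3.16, 3, 2.40 and 1.99 CPM with IL-2. Lef1 (1.44), Bach2 (1.36), Myb (2.01), Foxp1 (1.06), Bcl11b (0.81), Ets1 (0.78), Satb1 (0.58), Zeb1 (0.51) and Foxo1 (0.47) rose too. Those that fell were Eomes (-1.32), Tox (-0.87), Id3 (-0.74) and Klf2 (-0.52), while Runx1 (-0.20) and Ikzf1 (0.09) did not pass. The call of Id3 was lost without replicate 2. Runx1 passed without replicate 5 (-0.30), and Ikzf1 passed without replicate 4 (0.16), with upper quartile scaling (0.16) and by library totals (0.18).

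Eomes, a T-box factor that serves both effector and memory cells, was at 267, 357, 361, 386 and 415 CPM at the start and at 157, 144, 139, 141 and 136 CPM without IL-2. In the presence of IL-2 it reached 641, 623, 662, 552 and 590 CPM, so that the cultures lay on opposite sides of the start with no overlap (without against with IL-2 -2.10 ± 0.09, adjusted p = 5.64e-20).

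Of 18 effector factors 8 fell and 5 rose, where 38.3% and 36.9% of all genes tested did. Among those that fell were Irf8 (-2.67), Prdm1, which encodes Blimp-1 (-1.50), Bhlhe40 (-1.20), Id2 (-1.18), Tbx21, which encodes T-bet (-1.14), and Nfil3 (-1.14). Irf8 was at 158, 193, 157, 143 and 152 CPM at the start, 28.4, 27.2, 18.7, 28.7 and 25.2 CPM without IL-2 and 240, 248, 218, 287 and 284 CPM with IL-2. All of its libraries without IL-2 lay below the start. The Ikaros family member Helios (Ikzf2) rose 7.15-fold (log2 2.84 ± 0.17) and was lower than at the start with IL-2 (-1.29 ± 0.18). Klf10 (2.80), Rora (1.20), Ikzf3 (0.88) and Gata3 (0.30) rose, Gata3 not without replicate 3 (0.18). Batf3 was under 1 CPM in every library of the 3 groups. Irf4 (0.05), Batf (-0.17), Runx3 (-0.01), Maf (-0.06) and Hif1a (0.15) did not pass the test. The list's median was -0.11, and it changed sign when replicate 1 was left out (0.03), so the list as a whole had no settled direction.

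**Figure D3:**
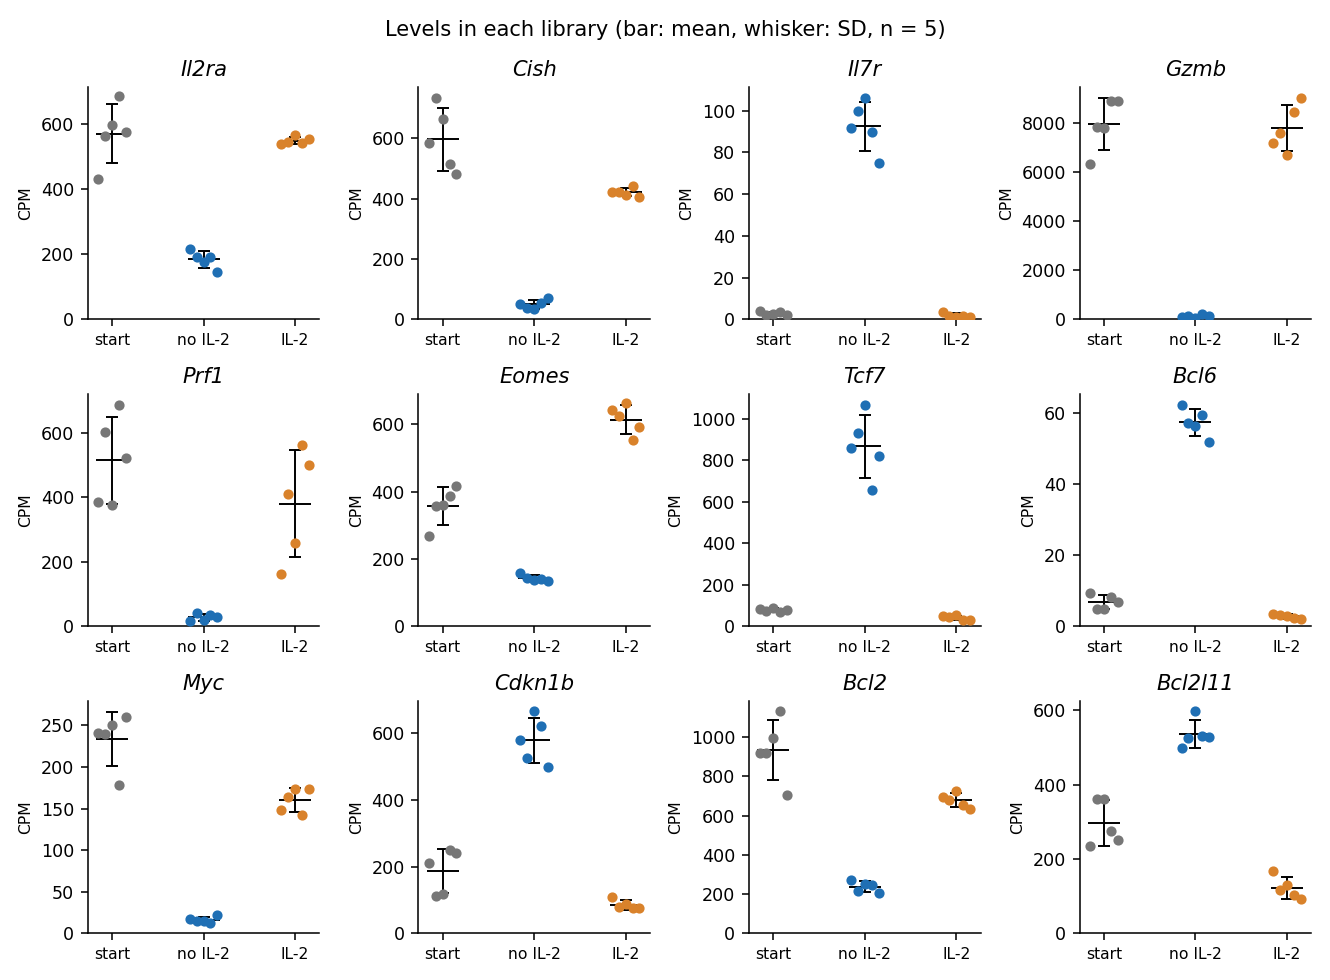
Panels give the level of 12 genes in CPM (y axis, from 0) in the 5 libraries of each group: start, 24 h at pH 7.4 without IL-2 and with IL-2. Dots are libraries, bars means and whiskers SD. Il2ra, Cish, Gzmb, Prf1, Myc and Bcl2 are low without IL-2, and Il7r, Tcf7, Bcl6 and Cdkn1b are high there, with Il7r at 74.9 to 106 CPM against at most 3.99 CPM at the start.

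Genes of T cell quiescence and known FOXO targets were mostly higher: 27 of 36 rose and 7 fell, at a median of 0.77, and the list's median lay between 0.74 and 1.08 in the 5 pairs. With IL-2 the counts went the other way, with 3 higher and 26 lower at a median of -0.75, and at 24 h 30 of the 36 were higher without than with IL-2 (41.1% of all genes). Txnip was at 202, 151, 161, 157 and 150 CPM at the start and at 2137, 2732, 2540, 2822 and 2735 CPM without IL-2, a rise of 15.7-fold (log2 3.98 ± 0.10, adjusted p = 1.3e-25). It also rose with IL-2, to 444, 465, 481, 472 and 382 CPM, although less far (1.44 ± 0.09). The PI3K inhibitor Pik3ip1 went from 63.5, 48.2, 42.8, 51.3 and 57.1 CPM to 257, 271, 279, 219 and 251 CPM without IL-2 and to 20.2, 16.8, 19.2, 16.8 and 17.1 CPM with it. Its libraries without IL-2 lay above, and those with IL-2 below, all start libraries. Of the members that fell, Bnip3, a mitophagy receptor whose sequence is partly shared with other genes, gave -3.55, Trib2 -0.98 and Klf6 -0.90.

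Of the 27 tested homing receptors and integrins 12 rose and 9 fell, beside 36.9% and 38.3% of all genes. The sphingosine-1-phosphate receptor S1pr1, chosen after its values were seen, was at 65.8, 43.4, 48.3, 53.1 and 56.4 CPM at the start, 190, 160, 194, 103 and 120 CPM without IL-2 and 24.3, 14.1, 19.8, 10.3 and 11.9 CPM with IL-2. Without IL-2 it did not overlap the start. Klf2, the factor known to raise it, was at 35.4, 20.7, 22.1, 18.5 and 31.5 CPM at the start and at 22.3, 20.3, 20.2, 9.51 and 17.6 CPM without IL-2, overlapping ranges with a fitted fall of 0.52 ± 0.14 (adjusted p = 0.00158). With IL-2 it stood at 4.66, 3.61, 5.09, 4.63 and 7.04 CPM, below every other library. S1pr1 thus rose while Klf2 did not, and both were higher without than with IL-2 at 24 h (Klf2 1.82 ± 0.16, adjusted p = 1.88e-12). The integrin chains Itga4 (2.80) and Itga1 (2.56) and the oxysterol receptor Gpr183 (1.92) were among the rises, and the residency marker Cd69 (-1.62) and Itgb2 (-0.96) fell.

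The forkhead letters TGTTTAC, on either strand, were present in 3 of 31 promoters of the quiescence list (9.68%), in 4 of 17 of the STAT5 list (23.5%), in 2 of 7 of the death genes of the BCL2 family (28.6%) and in 3.19% of all. The stretches around the matches of Txnip (chr3:96557812-96557866, plus strand) and Btg1 (chr10:96616773-96616827, plus strand), an antiproliferative gene chosen for its match, are given because both genes rose (Btg1 1.09). Capitals mark the match, which in Txnip lies on the other strand.
Txnip: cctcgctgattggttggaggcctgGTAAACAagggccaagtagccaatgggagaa
Btg1: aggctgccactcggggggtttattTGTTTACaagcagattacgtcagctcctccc

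The BCL2 family changed on both of its arms, with members of each moving both ways. Of 6 tested survival genes 4 rose and 2 fell, at a median of 0.197. Of 9 death genes 2 rose and 5 fell, at -0.363, beside 36.9% and 38.3% of all genes tested. Bcl2 was at 919, 920, 994, 1136 and 708 CPM at the start and at 272, 217, 250, 246 and 205 CPM without IL-2, a 3.94-fold fall (log2 -1.98 ± 0.10, adjusted p = 4.44e-18). Cultures with IL-2 held 693, 681, 727, 655 and 636 CPM. Bcl2l1, which encodes BCL-XL, went from 95.0, 118, 95.3, 98.4 and 116 CPM to 16.3, 16.1, 15.9, 14.4 and 18.3 CPM and stayed at 93.3, 104, 93.5, 107 and 106 CPM with IL-2. Neither survival gene overlapped the start. The survival genes Bcl2a1b (0.79) and Bcl2a1d (1.95), copies that share most of their sequence, so that their counts come from the small part that differs, rose both without and with IL-2 (0.60 and 1.79). The call of Bcl2a1b was lost without the replicate block (0.74), and Mcl1 gave 0.18, a call lost under 5 other settings.

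Among the death genes, Bcl2l11, which encodes BIM and opposes BCL2, was at 234, 363, 363, 275 and 252 CPM at the start and rose to 499, 525, 599, 532 and 529 CPM. In IL-2 the level was 169, 118, 130, 104 and 93.9 CPM, below the start. Bmf rose as well (log2 1.53 ± 0.13) and was lower with IL-2 (-1.85 ± 0.16). Bbc3, which encodes PUMA, gave 0.15 without IL-2, which did not pass (adjusted p = 0.435) except without replicate 1 (0.42), but fell with IL-2 (-2.12 ± 0.18), so that it too was higher without than with IL-2 at 24 h (2.27 ± 0.18, adjusted p = 1.03e-12). Bak1 (-1.23), Bid (-1.14), Pmaip1 (-0.67), Bax (-0.53) and Bad (-0.36) fell, Bad not without replicate 1 (-0.24) or replicate 2 (-0.29). Of 25 p53 target genes 7 rose and 10 fell, beside 36.9% and 38.3% of all genes tested. Among them were Trp53inp1 (1.54), Ddb2 (1.05) and Xpc (0.95) upward and Plk2 (-1.38), Sesn2 (-1.30) and Cdkn1a (-1.12) downward. With IL-2, 3 of the 25 rose and 13 fell (29% and 30.9% of all genes). Plk2, Sesn2 and Cdkn1a gave -1.64, -0.16 and -0.40 there.

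Myc fell 14.4-fold. It was at 241, 240, 250, 178 and 260 CPM at the start and at 17.2, 14.6, 14.7, 13.1 and 21.7 CPM without IL-2 (log2 -3.85 ± 0.13, adjusted p = 1.69e-22). With IL-2 it was at 148, 164, 173, 142 and 174 CPM, a change of -0.54 ± 0.11, and the cultures without IL-2 lay far below both other groups. Its relative Mycn fell 38.9-fold, from 58.1 to 86.8 CPM to 1.29 to 2.63 CPM (log2 -5.28 ± 0.12). Of the partners and rivals of MYC, the repressor Mxd4 rose (1.83) and was lower with IL-2 (-1.12), and Mga and Mlxip rose (0.54 and 0.73). Mxd3 (-2.95), Mlx (-0.76), Mxi1 (-0.62) and Mxd1 (-0.52) fell, Mxi1 not without replicate 1, 4 or 5 (-0.55 to -0.45). Mnt (-0.10) did not pass the test except without replicate 5 (-0.27). With IL-2 the values of Mxi1 (-1.48), Mxd1 (-1.26) and Mnt (-0.57) were lower than without it. Those of Mxd3 (1.76) and Mlx (0.09) were higher.

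Regulators of entry into the cell cycle fell with few exceptions, 20 of 25 lower and 4 higher. The D cyclins Ccnd2 (-2.10) and Ccnd3 (-2.52) and their kinases Cdk4 (-1.59) and Cdk6 (-1.92) fell. So did the E cyclins Ccne1 (-1.68) and Ccne2 (-2.57) and their kinase Cdk2 (-2.07). The value of Ccnd1 (0.08) did not pass. The inhibitor p27 (Cdkn1b) rose. It was at 210, 113, 119, 249 and 242 CPM at the start, 580, 525, 665, 622 and 498 CPM without IL-2 and 109, 79.3, 87.3, 75.3 and 75.2 CPM with IL-2. All libraries without IL-2 lay above the start and all with IL-2 lay under it. The other members that rose were the retinoblastoma family genes Rb1 (0.50), Rbl1 (0.72) and Rbl2 (0.84). Rbl1 rose more with IL-2 (1.78). The inhibitors Cdkn1a (-1.12), Cdkn2a (-2.60), Cdkn2b (-1.55), Cdkn2c (-0.50) and Cdkn2d (-0.62) fell. The E2F factors fell from E2f7 (-4.21) and E2f8 (-3.69) to E2f3 (-0.32) and E2f5 (-0.31). The call of E2f5 was lost by library totals (-0.22), and E2f5 also fell with IL-2 (-0.40).

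Most S phase and G2/M genes fell without IL-2 and rose with it. Of 63 S phase genes 57 fell and 3 rose without IL-2, at a median of -1.72, and 63 rose with IL-2, at a median of 1.68. Of 72 G2/M genes 63 fell and 4 rose without IL-2, at -1.88, and 71 rose with IL-2, at 2.06. At 24 h all 63 S phase genes and 70 of the 72 G2/M genes were lower without than with IL-2. Uhrf1, which recruits maintenance DNA methylation, was at 74.7, 105, 92.3, 57.2 and 47.8 CPM at the start, 3.36, 2.87, 3.26, 2.80 and 3.04 CPM without IL-2 and 284, 341, 328, 315 and 291 CPM with IL-2. Cdk1, the mitotic kinase, was at 64.5, 48.8, 56.4, 43.6 and 62.9 CPM, 7.82, 8.13, 8.98, 4.76 and 4.19 CPM and 248, 271, 289, 265 and 294 CPM in the same order. For both genes the 3 groups were separate. The ribonucleotide reductase subunit Rrm2 (-3.30), the checkpoint adaptor Clspn (-3.24) and the mitotic kinase Bub1 (-2.94) fell too. Small rises included those of Atad2 (0.46) and Ubr7 (0.29) among S phase genes and of Smc4 (0.59), G2e3 (0.49, not without replicate 3) and Ctcf (0.36) among G2/M genes.

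The cell cycle homology region of late cell cycle genes was searched as TTTGAA on either strand. It was found in 42 of 63 G2/M promoters (66.7%), in 14.9% of the S phase promoters and in 14.4% of all, and also in 4 of 6 promoters of the BCL2 family survival genes. The stretches of Cdk1 (chr10:69352913-69352951, minus strand), Cks1b (chr3:89418292-89418332, minus strand) and Ube2c (chr2:164769876-164769928, plus strand) hold the match in capitals, on the other strand in Ube2c. Cks1b, a partner of Cdk1 (-2.96), and Ube2c, a ubiquitin-conjugating enzyme of mitotic exit chosen for its match (-2.77), fell.
Cdk1: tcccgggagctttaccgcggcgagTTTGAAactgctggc
Cks1b: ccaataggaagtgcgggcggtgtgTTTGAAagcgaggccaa
Ube2c: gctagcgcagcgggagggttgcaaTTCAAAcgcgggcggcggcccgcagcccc
The matches end 9, 11 and 23 bases before the start site.

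Genes of ribosome assembly, many of them targets of MYC, were lower with hardly an exception: 58 of 61 fell and the other 3 did not pass the test, at a median of -1.47. With IL-2, 50 rose and 2 fell, at 0.54. Spermidine synthase (Srm) was at 85.0, 103, 96.3, 71.3 and 91.1 CPM at the start, 4.43, 3.97, 3.60, 3.63 and 4.32 CPM without IL-2 and 145, 156, 132, 161 and 156 CPM with IL-2. Its groups did not overlap, and it fell 22.6-fold (log2 -4.50 ± 0.19, adjusted p = 1.18e-19). Bysl (-3.11) and Ppan (-2.89), both factors of ribosomal subunit assembly, fell too. The E-box letters CACGTG were found in 13 of 55 promoters of this list (23.6%), in 22.6% of the quiescence list and in 11.6% of all. Shares were higher in the lysosome and autophagy list (33.3%, 12 of 36) and in the MYC network (40.0%, 4 of 10). Shown are Apex1 (chr14:50924901-50924948, plus strand), Nop2 (chr6:125131799-125131852, plus strand) and Utp18 (chr11:93885767-93885810, minus strand), chosen for their matches. Their log2 fold changes were -2.87, -2.04 and -1.21, and reads of Apex1 cannot be fully told from those of an overlapping gene on the other strand.
Apex1: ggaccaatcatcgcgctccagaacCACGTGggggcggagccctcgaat
Nop2: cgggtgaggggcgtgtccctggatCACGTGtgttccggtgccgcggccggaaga
Utp18: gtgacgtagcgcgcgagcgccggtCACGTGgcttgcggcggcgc

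Cytosolic ribosomal proteins also fell, by less. Of 78 members 63 fell and 1 rose, at a median of -0.51. Without replicate 5, whose start library had the highest level of this list, 53 fell and 1 rose, at -0.37. The decline was present with IL-2 as well, where 57 fell and 3 rose at a median of -0.52, and at 24 h the median difference between the cultures was 0.01. Rps2 (-1.66), Rpl5 (-1.44) and Rpl10a (-1.41) were among the falls and Rps27, chosen after its value was seen, rose (0.59). All of them share part of their sequence with other transcripts, so their levels are uncertain.

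**Figure D4:**
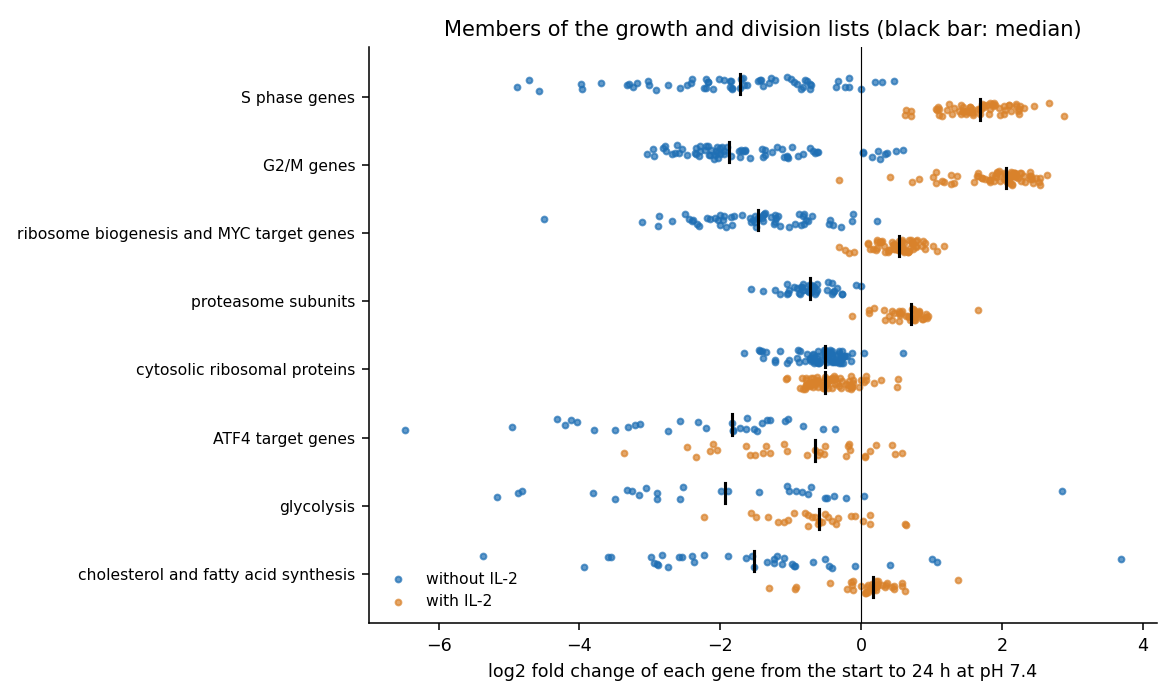
Dots are genes of 8 lists in rows, placed by their log2 fold change from the start to 24 h at pH 7.4 (x axis) without and with IL-2; the black bars are medians. S phase, G2/M and ribosome biogenesis genes lie mostly below 0 without IL-2 (medians -1.72, -1.88 and -1.47) and above it with IL-2 (1.68, 2.06 and 0.54).

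Glycolysis genes fell in 24 of 28 cases and rose in 1, at a median of -1.94, against 17 lower and 2 higher at -0.61 with IL-2. Hexokinase 2 (Hk2), the first enzyme of the pathway, was at 294, 93.3, 80.8, 199 and 244 CPM at the start, 8.05, 4.52, 4.02, 6.13 and 6.81 CPM without IL-2 and 130, 195, 160, 198 and 217 CPM with IL-2. Its start libraries varied widely, yet all lay above those without IL-2. Triose phosphate isomerase (Tpi1) fell 28.1-fold (log2 -4.81 ± 0.22). Pdk2, the only member that rose (2.85, chosen after its value was seen), encodes a kinase that inhibits pyruvate dehydrogenase. Slc16a3 was at 331, 132, 108, 241 and 290 CPM at the start and at 5.95, 5.89, 6.95, 6.09 and 6.29 CPM without IL-2.

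Among the genes of cholesterol and fatty acid synthesis 32 of 37 fell and 4 rose, at a median of -1.52. The synthesis enzyme Cyp51 was at 173, 306, 322, 251 and 275 CPM at the start, 14.5 to 18.7 CPM without IL-2 and 222, 358, 333, 327 and 388 CPM with IL-2. Its log2 fold change without IL-2 was -3.93, and Hsd17b7 (-3.59), another enzyme of the pathway, fell as well. The 4 rises were those of Fads1 (1.07), the ubiquitin ligase Mylip (1.00), and the cholesterol exporters Abcg1 (0.41) and Abca1 (chosen after its value was seen, 3.69). Most genes of the list thus fell as the exporters rose.

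Amino acid transporters fell in 13 of 19 cases and rose in 4. Slc7a5, the light chain of the large neutral amino acid transporter and a known MYC target, was at 355, 393, 303, 310 and 292 CPM at the start, 26.7, 15.8, 14.4, 15.1 and 19.6 CPM without IL-2 and 302, 304, 266, 295 and 304 CPM with IL-2. Its fall was 18.6-fold (log2 -4.22 ± 0.17). The partner chain Slc3a2 (-1.53) and the arginine transporter Slc7a1 (-2.98) fell too. The transporters of the lysosome Slc38a9 (1.19) and Slc36a1 (1.29) rose. All 31 tested targets of ATF4, the factor of the amino acid response, fell, at a median of -1.84. Stc2 (-4.12), Psat1 (-3.49) and Asns (-3.14), enzymes and a hormone of that response, were among them, and with IL-2 21 of the 31 fell and 3 rose.

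Chaperones and sensors of the endoplasmic reticulum fell in 23 of 31 cases without IL-2 and rose in 20 with it. Hspa5, which encodes BiP (-2.05), Sdf2l1 (-2.85) and Ero1l (-3.16) fell, while the sensor Ern1, which encodes IRE1 (1.23), and Dnajc3 (0.25) rose. The call of Dnajc3 was lost in the fit of the 2 groups alone. Proteasome subunits fell in 37 of 40 cases, at a median of -0.73, and 36 rose with IL-2 at 0.71. The assembly chaperone Psmg1 (-1.56) and the catalytic-ring subunit Psmb2 (-1.23) were among the falls. Subunits of oxidative phosphorylation fell in 58 of 64 cases and rose in 1, at -0.72, and rose in 36 with IL-2. Atp5g1 (-1.88), Uqcrq (-1.61) and Cox6a1 (-1.53) led the falls. Leaving out replicate 5 gave 36 falls and a median of -0.65 for the proteasome and 56 falls and -0.51 for oxidative phosphorylation. Of the 13 transcripts of the mitochondrial genome 7 were tested, of which 3 fell: mt-Nd1 (-1.12), mt-Nd2 (-0.99) and mt-Nd6 (-0.85).

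Lysosome and autophagy genes were an exception among the organelle lists, with 22 of 44 higher and 9 lower at a median of 0.19, against 8 higher and 21 lower with IL-2. The lysosomal calcium channel Mcoln1 (1.42) and the initiators of autophagy Ulk1 (1.04) and Atg14 (1.13) rose. Gusb (-0.82), Ctsz (-0.81) and Atp6v1a (-0.70) fell. Of 22 inhibitors of mTORC1 and PI3K signaling 12 rose and 5 fell, with Sesn3 (1.29) and the AKT phosphatase Phlpp1 (1.53) beside Pik3ip1 among the rises and Ddit4 (-1.72), Sesn2 (-1.30) and the arginine sensor Castor1 (-1.05) among the falls. The falls of Ddit4 (-1.58) and Castor1 (-0.85) were also present with IL-2.

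Of 19 inhibitory receptors 8 rose and 9 fell, where 36.9% and 38.3% of all genes tested did. Ctla4 was at 228, 131, 142, 233 and 228 CPM at the start, 276, 394, 398, 368 and 313 CPM without IL-2 and 35.2, 44.6, 54.7, 56.9 and 79.7 CPM with IL-2. Each library without IL-2 lay above all start libraries, and each with IL-2 below. Cd101 (2.67), Klrg1, a marker of terminal effector cells (2.67), Cd96 (1.05) and the adenosine-forming enzyme CD73 (Nt5e, 0.85) rose. Havcr2, which encodes TIM-3 (-1.99), Lag3 (-1.47), Entpd1, which encodes CD39 (-1.51), Cd244a (-1.34) and Cd160 (-0.87) fell. Lag3 fell with IL-2 too (-1.72), and the 24 h cultures gave no difference that passed (0.25 ± 0.13, adjusted p = 0.0803). The PD-1 gene Pdcd1 rose (0.55), a call that was lost without the replicate block.

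Among 19 costimulatory receptors 10 rose and 4 fell. The 4-1BB gene Tnfrsf9 was at 1085, 950, 873, 1368 and 1532 CPM at the start, 17.7, 25.5, 14.3, 26 and 19.7 CPM without IL-2 and 346, 538, 522, 671 and 780 CPM with IL-2, which was a 56.0-fold fall without IL-2 (log2 -5.81 ± 0.17) with no overlap. The GITR gene Tnfrsf18 fell both without (-1.51) and with IL-2 (-1.30). Slamf6 was at 2.70, 5.49, 8.20, 4.39 and 4.76 CPM at the start and at 33.6, 73.8, 83.5, 52.6 and 62.3 CPM without IL-2, and the HVEM gene Tnfrsf14 rose by 2.04 ± 0.13. The T cell receptor complex and its proximal signaling had 9 of 24 members higher and 10 lower, beside 36.9% and 38.3% of all genes, with no member outside the range of -0.75 to 1.10. Nfatc3 (1.10) and Plcg1 (0.65) were among the rises, and Rasgrp1 (-0.75) and Zap70 (-0.68) among the falls.

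Immediate early genes, which follow recent receptor signals, fell in 18 of 27 cases and rose in 6, at a median of -0.88. The list's median ranged widely over the 5 pairs, from -1.36 to 0.00176, and was lower in 4 of them. With IL-2, 13 fell and 2 rose (30.9% and 29% of all genes), at -0.31. Fosl2 (-2.07), Ier3 (-2.56) and Jund (-2.68, a gene whose sequence is partly shared) fell. With IL-2 these 3 gave -1.28, -0.93 and -1.17. Among the members that rose were restraints on NF-kappaB and on messenger RNA stability: Tnfaip3, which encodes A20 (2.07), Nfkbia (1.30) and Zfp36l1 (1.25).

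Interferon-stimulated genes rose in 28 of 52 cases and fell in 11, at a median of 0.33, and with IL-2 25 rose and 7 fell, at 0.26. Iigp1, Ifit2 and Irgm1 rose without (1.8, 1.62 and 1.48) and with IL-2 (1.93, 1.14 and 1.23). At 24 h Iigp1 gave -0.13 ± 0.26 (adjusted p = 0.663) and Irgm1 0.25 ± 0.14 (adjusted p = 0.115) between the cultures, neither past the threshold. Socs1 (-2.31) and Bst2 (-1.53) fell without IL-2. Of the 8 GIMAP genes, GTPases of lymphocyte survival, 7 rose and 1 fell, with Gimap6 (0.87), Gimap4 (0.72) and Gimap8 (0.44) rising and Gimap7, named after its value was seen, falling (-0.44). With IL-2 6 of the 8 fell.

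**Figure D5:**
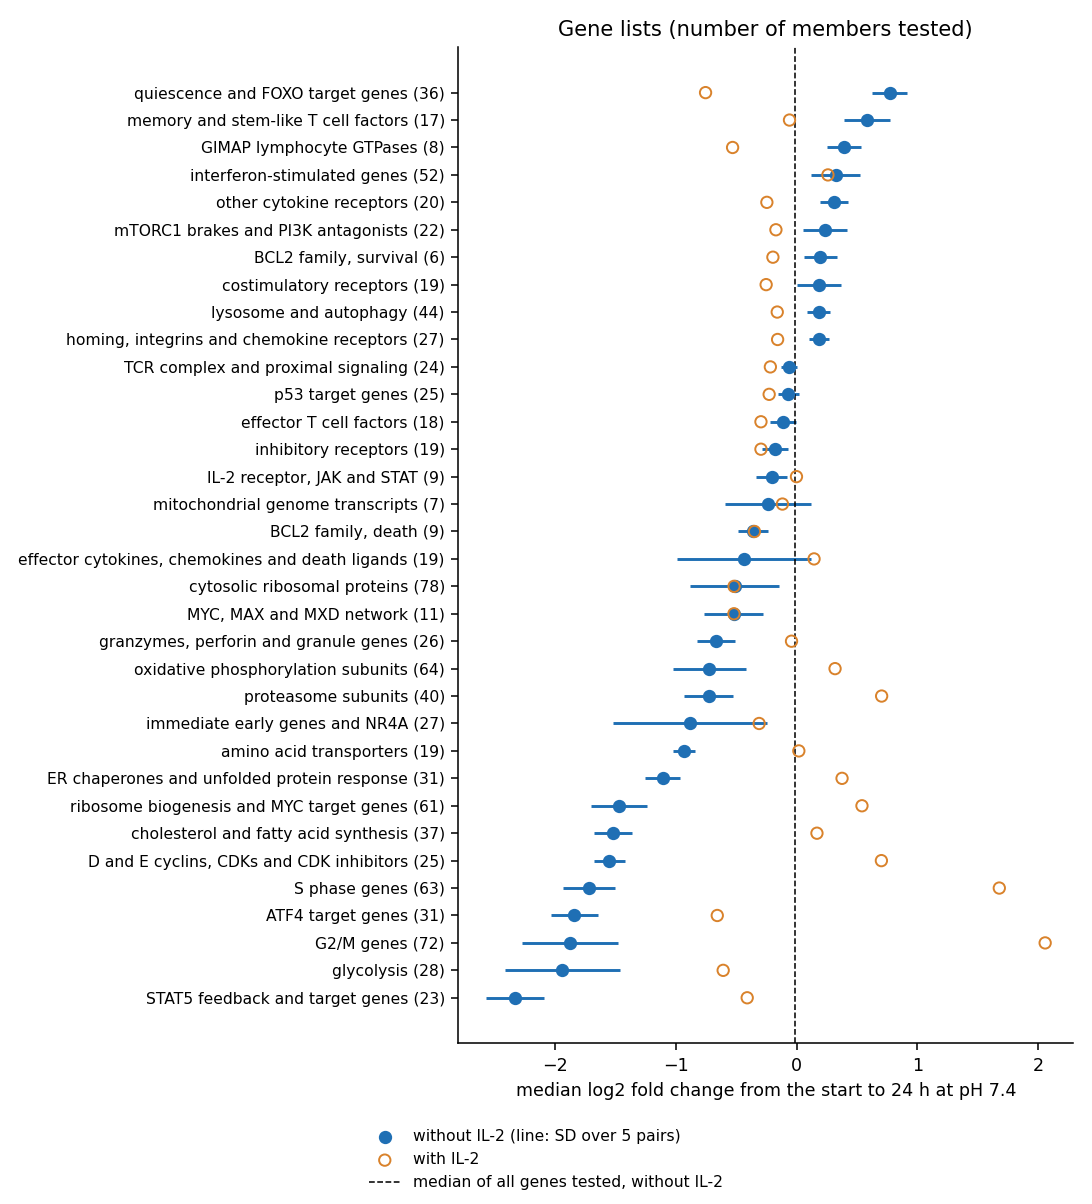
Filled points are the median log2 fold change (x axis) of each gene list from the start to 24 h at pH 7.4 without IL-2, with the SD over the 5 pairs as a line, and open points the same with IL-2; the dashed line is the median of all genes without IL-2. The STAT5 list lies lowest (-2.33) and the quiescence list highest (0.77).

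Some of the genes named share sequence with other transcripts or overlap a gene on either strand, and their values are less certain. At most 82.9% of the windows of 50 bases along the transcripts were unique to the gene for Apex1, Bad, Bak1, Bcl2a1b, Bcl2a1d, Bnip3, Ccnd1, Ctsl, Ddb2, Foxp3, Gzmd, Gzme, Gzmg, Ifng, Il2rg, Itgam, Jund, Rbl2, Rpl10a, Rpl5, Rps2, Rps27, Tcrg-C1, Tgm2, Tnfrsf18 and Zfp36l1. The genes named lie on GRCm38 chromosomes, for example Gzmb at chr14:56258838-56262260, Il7r at chr15:9505788-9530176, Tcf7 at chr11:52252371-52283014, Myc at chr15:61985391-61990374 and Il2ra at chr2:11642807-11693193, each spanning the whole annotated gene.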

How the data were processed

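RNA of OT-I CTLs was sequenced by the authors from stranded libraries of polyadenylated RNA, as single reads on an Illumina HiSeq instrument. Per the labels and the submitters' processing notes, cutadapt 1.8, STAR 2.5.2b and HTSeq 0.6.1 were used with GRCm38. The annotation, the read length and the strand setting of the counting are not given in the sources used here, so reads of overlapping genes on either strand may not be told apart. The authors deposited 1 table of raw counts per library over 48709 genes, with no normalization. Reads that aligned at several places stayed uncounted, which lowers genes with near-identical copies. As a percentage of the summed entries of a table, which may list such a read more than once, they came to 32.8 to 48.3% in the 3 groups described here, and reads in no annotated feature to 2.58 to 10.2%. Both stayed out of library sizes and tests. Counts stand for reads, not molecules.

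In R 4.3.3, edgeR 4.0.16 fitted the 35 libraries in a robust quasi-likelihood model with TMM scaling, filterByExpr (minimum count 10, 13819 genes kept) and the replicate number as a block. P-values were adjusted over all genes tested (Benjamini-Hochberg), and 0.05 was the threshold. Groups came from the titles and treatment labels. Same-numbered cultures came from 1 biological replicate by the series' design. Their deviations from the group means correlated at -0.0222 to 0.364 between the start and the cultures without IL-2 (median 0.153), against a median of -0.0628 for unlike numbers. Libraries of a group differed by more than sampling noise (lowest chi-square per degree of freedom 6.65 over 70 pairs). Lists of genes were described by counts and medians, with no set test. The members and lists were chosen with earlier results of these data known. Genes named were the 10 largest rises and falls (predicted genes left out, 2 of them among the rises), members of the lists of IL-2 receptor, BCL2 family, MYC network, memory and effector factors, granule, cytokine, inhibitory receptor and cyclin genes, and up to 3 rises and 3 falls of every other list. Abca1, Apex1, Btg1, Gimap7, Nop2, Pdk2, Pim1, Rps27, S1pr1, Socs2, Ube2c and Utp18 were chosen after their values were seen. A few genes that this rule names are not reported here. Symbols were matched for 48349 identifiers, and coordinates are of GENCODE M21. Alternatives were other scalings (DESeq2 size factors, upper quartile, library totals), DESeq2 1.42.0, 2 other filters, a fit of the 2 groups alone, no replicate block, a minimum change of 2-fold and leaving out each replicate. The fit was tested on simulated data with known changes.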

Additional observations from a re-analysis of the deposited data

Results flagged for a closer look

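The change from the start differed between the cultures without and with IL-2, by a test of the difference itself (edgeR's quasi-likelihood test at an adjusted p under 0.05), for 11111 of 13819 genes tested. Beyond it, in 600 groups of 5 libraries (532 of named genes and 68 of gene lists) 35 had a library farther from the rest than the 95% limit of Dixon's test, which chance passes in about 1 of 20 groups. The library that stood out most often was the start library of replicate 5, with 8 of the 35. All levels that follow are in log2 CPM.

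That library was highest for cytosolic ribosomal proteins (8.66), oxidative phosphorylation subunits (6.75) and proteasome subunits (7.19), and lowest for memory and stem-like factors (5.86), as means over each list. It was also lowest for Itga4 (3.17), Mlxip (6.31), Ikzf3 (5.66) and Tnfsf10 (4.97). The start library of replicate 1 was highest for Txnip (7.66), Cd160 (7.34) and Xcl1 (4.53). It was lowest for Fosl2 (7.48), Pmaip1 (5.24), Maf (2.51) and Ccnd1 (-3.65, the value of a library with no reads on the gene). Among the other start libraries, that of replicate 2 was highest for Itgam (0.56), that of replicate 3 lowest for Batf3 (-3.03), and that of replicate 4 lowest for Myc (7.48) and Bid (4.60).

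Without IL-2, the library of replicate 1 was highest for Id3 (4.07), Cdk2 (4.27), Rps27 (3.48) and Slc38a9 (6.90) and lowest for Pdcd1 (3.28) and Maf (2.79), so that replicate 1 was low in Maf at both times. Replicate 2 was highest for Psmb2 (5.85) and Batf3 (-3.07). For Batf3 all other libraries of the group were at -3.65, the value of no reads, so any read would have been flagged. Replicate 3 was highest for Foxo1 (7.99) and Ikzf2 (7.12) and lowest for Tnfrsf8 (-0.11). Replicate 4 was highest for Bnip3 (5.34) and lowest for Klf2 (3.26), Zap70 (6.81) and Ctsl (3.04), and replicate 5 was highest for Ppan (4.06). No called change of a named gene turned direction when a replicate was left out.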

How the results depend on the processing

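The count of genes changed without IL-2 (10398) lay between 9915 and 10033 when 1 replicate was left out, and those changed with IL-2 (8282) and different between the cultures (11111) between 7505 and 7987 and between 10649 and 10936. Without the replicate block the counts were 9970, 7576 and 10753. Asking for at least a 2-fold change left 4205, 2091 and 5657. Under the other settings these counts stayed within 1.5 times of the values reported. The share of calls that were rises was 49.1% without IL-2, and 54.7% by library totals alone. With IL-2 it was 48.4% and fell to 33.3% with upper quartile scaling, which moved the median of all genes to -0.18. Between the cultures that median was 0.27 and the share 60.5% with upper quartile scaling, against 51.1%.

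Of 34 list medians 26 stayed within their spread over pairs under every alternative run. Library totals gave 0.02 for p53 targets, 0.28 for homing receptors, -0.84 for amino acid transporters and 0.03 for the T cell receptor list, for which upper quartile scaling gave 0.01. Requiring 10 counts in every library gave 0.00 for effector factors and -0.33 for inhibitory receptors, and admitting any gene with a count gave -1.32 for cyclins. When 1 replicate was left out, the median ranged from -0.15 to 0.03 for effector factors, from -0.06 to 0.03 for the T cell receptor list and from -2.13 to -1.76 for ATF4 targets. The cause of these shifts was not tested. Of 266 genes named, 243 kept their call and direction under every alternative, and no called change turned direction. The no-block fit lost the calls of Stat5a, Ifng, Pdcd1, Bcl2a1b and Xcl1 and of no other named gene. Genes at or near 0 in a group have no usable fold at this depth.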

Other observations

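Classes of RNA moved unevenly between the start and 24 h without IL-2. Of 11866 protein-coding genes tested 35.1% rose and 41.3% fell. Among 323 lincRNA genes 56.0% rose and 17.3% fell, among 335 antisense genes 59.4% and 13.1%, among 213 processed transcripts 56.8% and 16.9%, and among 316 loci of the annotation class TEC 57.3% and 7.59%. Of 315 processed pseudogenes 14.3% rose and 43.8% fell. The classes lay at unlike levels: the median log2 CPM was 4.9 for protein-coding genes, 0.103 for lincRNA genes and -0.219 for antisense genes. It was 0.862 for processed transcripts, -0.673 for TEC and -0.655 for processed pseudogenes. The part of level in these counts was not tested. The share of reads that matched no gene was higher without IL-2 (7.70 to 10.2%) than at the start (2.58 to 5.68%), and its part in these counts was not tested. Without strand information on the counting, antisense genes cannot be fully told from their partners.

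The constant gene of the gamma chain of the T cell receptor, Tcrg-C1, which CD8+ alpha beta T cells can transcribe and part of whose sequence is shared with its copies, fell from 255, 151, 231, 234 and 291 CPM at the start to 27.9, 21.5, 18.2, 25.3 and 13.8 CPM without IL-2, a 10.8-fold fall with no overlap. With IL-2 it was at 211, 182, 229, 182 and 201 CPM. The delta constant gene Trdc moved the other way, from 503, 386, 522, 481 and 534 CPM to 774, 711, 673, 816 and 653 CPM (log2 fold change 0.59 ± 0.07).

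Of 18 myeloid and dendritic cell markers 6 could be tested and 4 rose. Itgax, which encodes CD11c and which activated T cells can also carry, was at 6.73, 5.24, 4.90, 3.91 and 2.73 CPM at the start and at 15.9, 21.6, 12.6, 22.6 and 18.2 CPM without IL-2. The receptor gene Flt3 was under 0.05 CPM in each start library and at 6.40, 1.88, 1.86, 1.25 and 0.98 CPM without IL-2. Cd68 (log2 fold change 0.61) and Itgam (1.01), which overlaps another gene, were the others, and 9 of the 18 markers were at 0 in every library without IL-2.

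Markers of regulatory and NK cells were lower. Foxp3 was at 1.64 to 5.50 CPM at the start and 0.54 to 0.72 CPM without IL-2, and Klrb1c at 83.4 to 94.9 CPM and 20.6 to 40.8 CPM. Foxp3 also fell with IL-2 (-2.04 ± 0.23, against -2.32 ± 0.24 without). Between the cultures at 24 h its difference did not pass the test (-0.28 ± 0.27).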
